A study of Mus musculus with 16 samples.

Results

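The heat shock proteins and cochaperones described here are 32 genes chosen by name from the mouse count table: the Hsp70, Hsp110, Hsp90, J-domain, small heat shock protein and chaperonin families, their best-known partners, and the transcription factor Hsf1. They are 32 of 53764 genes in the table, and all 32 passed the filter on low counts, as did 15841 genes in all. RNA came from left ventricles of male C57BL/6J mice, a common inbred laboratory strain, that were 8 weeks old when they went on a diet for 4 months. The groups were CD untreated and CD ertugliflozin, on a low-fat control diet, and HFHS untreated and HFHS ertugliflozin, on a diet high in fat and sucrose. Ertugliflozin, an inhibitor of the kidney's sodium-glucose cotransporter SGLT2, was given in the food at 0.5 mg/g. Each group has 4 libraries from 4 animals, which the submitters picked as representative out of 12, so the spread between libraries is that of picked animals. The questions are what the diet does to the ventricle, and what the drug does on each diet.

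Chaperones of the Hsp70 family bind unfolded stretches of protein in cycles of ATP hydrolysis. J-domain proteins deliver clients and start hydrolysis, while Hsp110 proteins and Bag3 exchange the nucleotide. Hsp90 takes later clients, such as kinases and steroid receptors, with the help of cochaperones that set its ATPase cycle, and small heat shock proteins hold unfolding clients without ATP. The heart, whose sarcomeres turn over under constant mechanical load, is known for high levels of several small heat shock proteins. On stress, Hsf1 forms trimers and binds heat shock elements, which are inverted repeats of the unit nGAAn in promoters.

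Promoter windows were searched for strict matches to this element, and these were found in only some of the genes. The RefSeq promoter table (GRCm38.p6) holds windows for 26 of the 32 genes, reaching from upstream of each start to just past it. The 6 genes without a window are Hspa8, Hsp90aa1, Hsp90ab1, Hspb2, Hspa9 and Hsf1. The search was for a pair of units, GAANNTTC or TTCNNGAA, and for 3 units, GAANNTTCNNGAA or TTCNNGAANNTTC. These letters cover both strands, and each match to 3 units also counts as a match to the pair. A pair was found in 14 of the 26 genes, 53.8%, beside 17% of all 27025 genes with a window. A run of 3 units was found in 4 of the 26, namely Chordc1, Hspd1, Hspe1 and Hsph1, or 15.4%, beside 0.662% of all genes. A match is a description of letters and not a measured binding site. The stretches below run 5′ to 3′ on the gene's own strand, with matches to the pair in capitals.
Hspe1 and Hspd1, shared site (chr1:55088054-55088081, plus strand): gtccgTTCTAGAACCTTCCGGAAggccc
Hsph1, site (chr5:149636283-149636305, minus strand): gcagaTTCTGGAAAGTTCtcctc
Hspa1a, upstream (chr17:34972157-34972306, minus strand): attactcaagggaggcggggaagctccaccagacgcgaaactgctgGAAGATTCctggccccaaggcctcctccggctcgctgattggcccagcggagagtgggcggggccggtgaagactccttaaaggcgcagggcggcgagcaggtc
Hspa1b, upstream (chr17:34959239-34959388, minus strand): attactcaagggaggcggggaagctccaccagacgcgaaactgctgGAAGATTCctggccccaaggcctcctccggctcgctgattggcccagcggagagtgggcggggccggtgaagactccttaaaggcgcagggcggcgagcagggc
Hspb1, upstream (chr5:135887769-135887918, plus strand): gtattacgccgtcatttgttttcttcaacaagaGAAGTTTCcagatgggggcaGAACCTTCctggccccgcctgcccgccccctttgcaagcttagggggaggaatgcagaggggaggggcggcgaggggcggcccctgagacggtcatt
Stip1, upstream (chr19:7040027-7040146, minus strand): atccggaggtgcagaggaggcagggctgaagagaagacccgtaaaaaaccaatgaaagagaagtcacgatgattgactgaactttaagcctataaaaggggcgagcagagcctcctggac

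Hspe1 and Hspd1 encode the partners of one chaperonin and are transcribed away from each other, with 215 bases between their RefSeq starts, so the printed run of units lies in the windows of both. Part of that interval may belong to an alternative exon of Hspd1. The upstream stretches of Hspa1a and Hspa1b match at 149 of 150 bases and carry the same pair of units. Stip1, Ahsa1 and Cacybp have windows without a pair, and the Stip1 stretch is shown as an example with no match in these letters. The Hsph1 site lies just past its RefSeq starts. The Hspb1 stretch carries 2 separate pairs.

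The libraries held 14637669 to 21452212 counts, of which the 32 genes took 1.09% to 1.27%. Values below are CPM, a gene's share of the library's counts scaled with TMM factors, and comparisons between genes use CPM per kilobase of annotated exon. The ventricle label was checked on marker genes. The summed CPM of 8 cardiomyocyte markers was 65805 to 81707 in every library. Some CD untreated libraries stood apart. Of 8 atrial markers, 7 passed the filter on low counts. Their summed CPM was 1092, 383, 249 and 148 in CD untreated replicates 1 to 4 and 116 to 226 elsewhere. The defining atrial genes Sln and Myl7 were at 0 in 5 and 2 libraries. Of 10 valve and cartilage-like markers, 8 passed the filter. Their summed CPM was 110, 289, 260 and 67.3 in those replicates and 30.6 to 103 elsewhere.

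Per kilobase, the small heat shock protein Hspb7, a muscle protein that binds filamin C, was the most abundant of the 32 with a mean level of 831 CPM per kb over 16 libraries. It was followed by the constitutive Hsp90 gene Hsp90ab1 (566 CPM per kb), Hspb6 (397 CPM per kb), Hspb8 (334 CPM per kb), mitochondrial Hspa9 (240 CPM per kb) and the Hsp90 cochaperone Fkbp4 (202 CPM per kb). The libraries of neighbours in this order partly overlapped: Hspb8 ranged from 289 to 402 CPM per kb and Hspb6 from 331 to 482 CPM per kb. The lowest were the stress-inducible Hsp70 genes, Hspa1a at 1.18 and Hspa1b at 1.08 CPM per kb, preceded by Hspa2 at 3.03 CPM per kb. The constitutive Hsp90ab1 was thus far above its inducible relative Hsp90aa1 (22.5 CPM per kb), and constitutive Hspa8 (149 CPM per kb) far above Hspa1a and Hspa1b.

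The inducible genes varied most between animals. From the lowest to the highest of 16 libraries, Hspa1b spanned 12.0-fold, Hspa1a 10.2-fold, the J-domain gene Dnajb1 2.91-fold and Dnaja1 2.09-fold. The SD of log2 CPM within groups was 0.919 for Hspa1b, 0.770 for Hspa1a and 0.424 for Dnajb1, beside a median of 0.120 over the 32 genes and 0.143 over all tested genes. Among genes within 2-fold of the same mean CPM, that SD stood at the 99.1 percentile for Hspa1a, 99.5 for Hspa1b, 98.7 for Dnajb1, 97.6 for Dnajb5, 96.7 for Dnaja1 and 96.1 for Hsph1. The lowest were Hsp90ab1 at the 10.9 percentile, Dnaja2 at 15.4 and Hspe1 at 15.9.

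Averaged over the drug arms, 4 of the 32 genes fell on HFHS and 0 rose. The threshold was an adjusted p of 0.05 in edgeR's quasi-likelihood test over all 15841 genes. The 4 were the mitochondrial cochaperonin Hspe1 and 3 genes grouped with Hsp90, Stip1, Ahsa1 and Cacybp. That is 12.5% of the genes, beside 11.6% of all genes called in either direction and 5.01% called lower, so the count of 4 in either direction is near the background. At an unadjusted p under 0.05, 10 were lower and 5 higher, beside 12.9% and 13.6% of all genes. The median log2 fold change over the 32 was -0.08, beside -0.01 over all tested genes, and 24 of 32 lay below 0, beside 52.3% of all genes. The 32 genes are not independent of each other, so these 24 are not separate pieces of evidence. Without drug, edgeR called 0 of the 32 (2.06% of all genes), DESeq2 also called 0 (3.83% of all genes) and limma-voom called 2 (4.69% of all genes), while 7 had an unadjusted p under 0.05, all lower (7.67% of all genes). With drug, edgeR called 1, Hspe1, beside 3.69% of all genes in either direction and 1.53% lower. At an unadjusted p under 0.05, 6 genes were lower and 2 higher with drug, beside 9.06% and 9.48% of all genes.

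**Figure D1:**
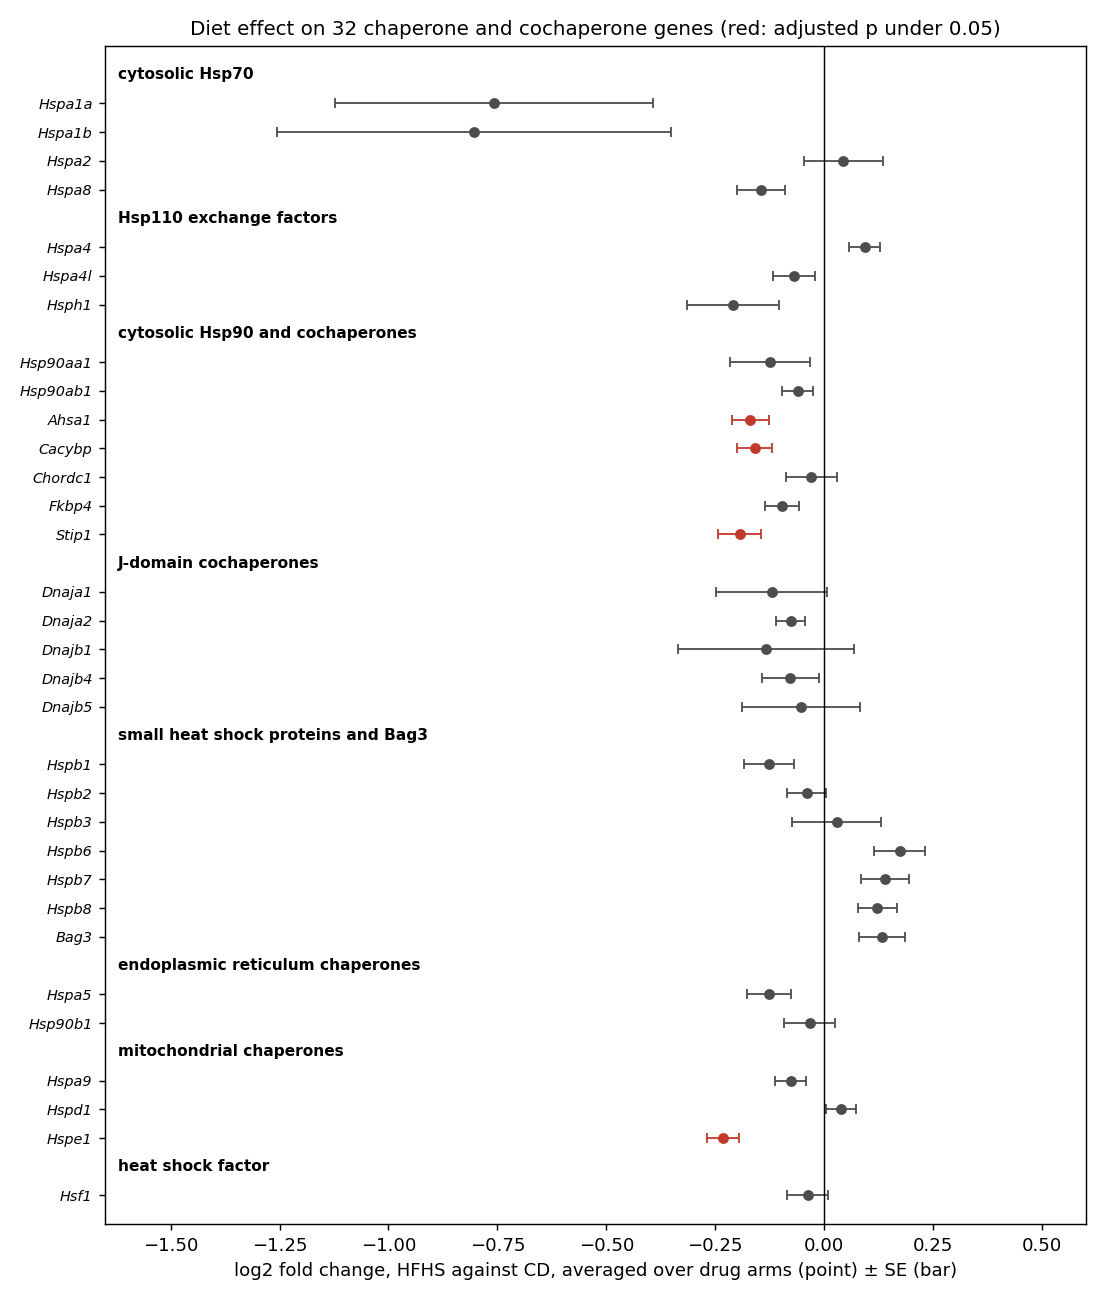
Log2 fold change on the HFHS diet against CD, averaged over drug arms, for each of the 32 genes ordered by role (points, with bars of ± 1 SE, and called genes in red). The 4 called genes lie below 0 with short bars, while Hspa1a and Hspa1b lie farthest left at -0.76 and -0.80 with the widest bars.

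Of the 3 mitochondrial matrix chaperones Hspe1 fell, and the other two did not pass the test. Hspe1 encodes Hsp10, the lid of the chaperonin whose barrel is Hsp60, encoded by Hspd1. Hspe1 was at 53.8, 56.2, 54.5 and 52.1 CPM in CD untreated, 51.9, 55.5, 57.3 and 56.0 in CD ertugliflozin, 52.5, 48.3, 49.4 and 44.7 in HFHS untreated, and 43.0, 45.0, 44.1 and 45.8 in HFHS ertugliflozin. All 4 HFHS ertugliflozin libraries were below all 4 CD ertugliflozin libraries, whereas without drug the groups overlapped in 1 HFHS library. The log2 fold change was -0.31 ± 0.05 (SE, n = 4 a group) with drug (adjusted p = 0.00243, edgeR) and -0.23 ± 0.04 averaged over drug arms (adjusted p = 0.000572, edgeR). Without drug it was -0.15 ± 0.05, with an adjusted p of 0.138 in edgeR. The difference between the diet effects had an unadjusted p of 0.0484 and an adjusted p of 1 in edgeR, so a larger effect with drug was not shown.

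Hspd1 did not pass the test in any of the 7 comparisons. Its libraries held 326, 320.4, 323 and 304 CPM in CD untreated, 321, 303, 287 and 335 in CD ertugliflozin, 313, 325, 337 and 324 in HFHS untreated, and 317, 335, 321 and 318 in HFHS ertugliflozin. The 4 groups overlapped, and the averaged diet effect on log2 Hspd1 was 0.04 ± 0.03. The ratio of Hspe1 to Hspd1 CPM is given as a description with no test, since the pair was chosen after these values were seen. It was 0.170 ± 0.00437 (SD, n = 4) in CD untreated, 0.178 ± 0.0173 in CD ertugliflozin, 0.150 ± 0.0127 in HFHS untreated and 0.138 ± 0.00426 in HFHS ertugliflozin. The log2 ratio was lower on HFHS by a difference of -0.36 with drug, -0.18 without drug and -0.27 averaged over drug arms. The transcripts overlap on opposite strands over 112 bases, and reads there could have been given to either gene.

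**Figure D2:**
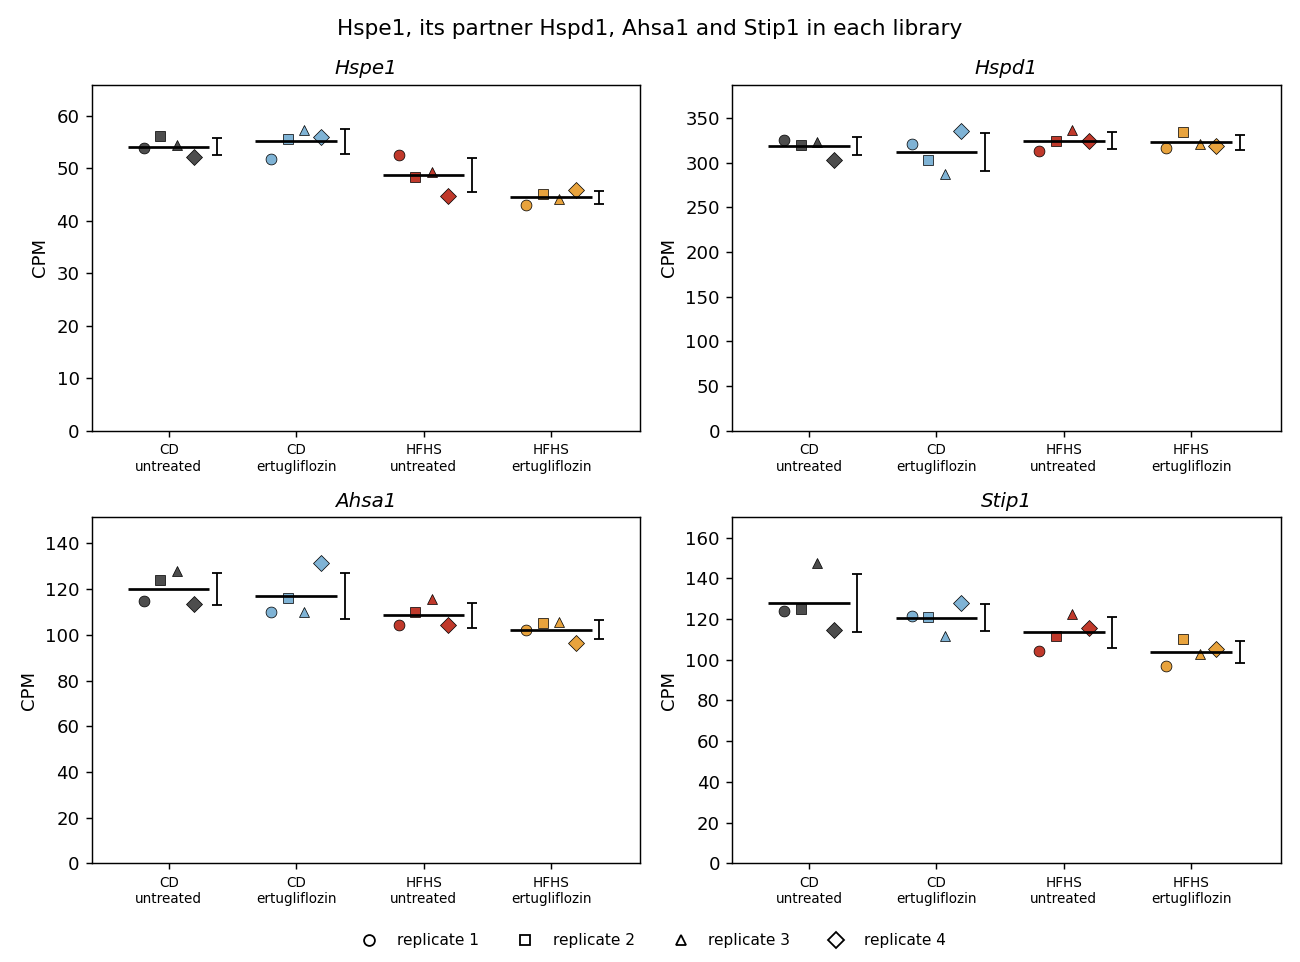
CPM of Hspe1, Hspd1, Ahsa1 and Stip1 in each library by group, with the mean (line) and SD (bar), each axis starting at 0. Hspe1 falls from 54.2 and 55.2 CPM in the CD groups to 48.7 and 44.5 CPM in the HFHS groups, while Hspd1 stays between 287 and 337 CPM in all 16 libraries.

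Hspa9, the mitochondrial Hsp70, which also pulls proteins through the inner membrane, was at 1054, 1030, 1033 and 1113 CPM in CD untreated and 1086, 1031, 1027 and 1134 in CD ertugliflozin. On HFHS it was at 918, 1043, 1062 and 1016 CPM untreated and 1004, 1038, 993 and 993 with drug. The ranges of the diet groups overlapped in both drug arms, and the averaged diet effect, -0.08 ± 0.04 on the log2 scale, did not pass (adjusted p = 0.184, edgeR).

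Some markers of heart cells were called too. Of 8 cardiomyocyte markers, 4 also fell on HFHS with drug and averaged over drug arms, namely the sarcomere genes Tnnt2, Tnni3, Myl2 and Myl3, by log2 fold changes between -0.19 and -0.21 in the average. Their summed CPM with the other markers was 72423 to 81527 in CD ertugliflozin and 69171 to 74156 in HFHS ertugliflozin. In the average, 2 of 8 endothelial markers, Cdh5 and Kdr, 1 of 8 fibroblast markers, Pdgfra, and 1 of 8 smooth muscle and pericyte markers, Pdgfrb (0.18, adjusted p = 0.0226, edgeR), rose. Of all genes, 5.01% were called lower and 6.59% higher in the average, and 1.53% lower with drug. Averaged effects were below 0 in 6 of 8 cardiomyocyte and 1 of 8 endothelial markers. The same held for 3 of 8 fibroblast and 4 of 8 smooth muscle and pericyte markers. In bulk tissue, fewer cells of a type and less RNA per cell cannot be told apart, and the part of these markers in the result was not tested.

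The cytosolic Hsp90 genes and their cochaperones all had averaged diet effects below 0, and 3 of the 7 passed. Stip1, also called Hop, bridges Hsp70 and Hsp90. It was at 124, 125, 148 and 114 CPM in CD untreated, 122, 121, 112 and 128 in CD ertugliflozin, 104, 112, 122 and 116 in HFHS untreated, and 96.8, 110.1, 103 and 105 in HFHS ertugliflozin. The groups overlapped without drug and did not overlap with drug. Its averaged log2 fold change was -0.19 ± 0.05 (adjusted p = 0.0153, edgeR).

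Ahsa1 stimulates the Hsp90 ATPase. Its levels were 115, 124, 128 and 114 CPM in CD untreated, 110.0, 116, 110.0 and 132 in CD ertugliflozin, 104, 109.8, 116 and 104 in HFHS untreated, and 102, 105, 105 and 96.3 in HFHS ertugliflozin. Again the groups overlapped without drug only, and the averaged log2 fold change was -0.17 ± 0.04 (adjusted p = 0.0149, edgeR). Cacybp, a protein that binds calcyclin and the ubiquitin ligase Siah1, was at 72.5, 82.1, 85.7 and 73.0 CPM in CD untreated, 75.7, 77.6, 71.9 and 82.0 in CD ertugliflozin, 73.5, 69.9, 70.6 and 67.3 in HFHS untreated, and 66.9, 68.4, 70.1 and 69.5 in HFHS ertugliflozin. In Cacybp too the groups were apart with drug and overlapped without it, and its averaged log2 fold change was -0.16 ± 0.04 (adjusted p = 0.0149, edgeR). The calls of these 3 cochaperones rest in part on 2 libraries. Without CD untreated replicates 2 and 3, the pair with the highest valve marker levels, the adjusted p in edgeR was 0.0683 for Stip1, 0.093 for Ahsa1 and 0.103 for Cacybp, and that of Hspe1 was 0.00579. That fit and the next 2 were added after the data were seen. Cacybp also missed the threshold after a correction for transcript length and GC content (-0.10, adjusted p = 0.132, edgeR). Stip1 missed it with atrial and valve marker scores as covariates (adjusted p = 0.081, edgeR), although its effect stayed at -0.19. That covariate fit called 4.87% of all genes in the average, beside 11.6% in the main fit.

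The other 4 genes of that group did not pass. Hsp90aa1, the inducible Hsp90, was at 94.1, 102, 119 and 84.8 CPM in CD untreated, 68.0, 104, 90.2 and 75.3 in CD ertugliflozin, 103, 93.3, 98.1 and 76.5 in HFHS untreated, and 73.4, 75.6, 83.8 and 73.6 in HFHS ertugliflozin. The diet groups overlapped in both drug arms, and the averaged diet effect was -0.12 ± 0.09 on the log2 scale. Hsp90ab1, Chordc1, whose protein binds Hsp90 through zinc-binding domains, and Fkbp4, the immunophilin of steroid receptor complexes, had averaged diet effects of -0.06, -0.03 and -0.10. Fkbp4 was the only gene of the 32 whose untreated groups did not overlap, with 571 to 616 CPM on CD and 535 to 558 on HFHS (4.22% of all genes were lower without overlap). With drug, 5 genes were lower without overlap, namely Hspe1, Stip1, Ahsa1, Cacybp and Dnaja2 (6.38% of all genes), and 2 were higher, Hspa4 and Hspb6 (6.79% of all genes).

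Several small heat shock proteins and Bag3 lay on the other side of 0, although none passed. Hspb6, a small heat shock protein of muscle that is phosphorylated by cyclic-nucleotide kinases, was at 884, 916, 874 and 864 CPM in CD untreated, 761, 796, 853 and 917 in CD ertugliflozin, 765, 1107, 963 and 1002 in HFHS untreated, and 918, 978, 994 and 1014 in HFHS ertugliflozin. With drug the groups were just apart, and without drug 1 HFHS library was below all CD libraries. The averaged log2 fold change was 0.17 ± 0.06 (adjusted p = 0.0604, edgeR), and it passed in DESeq2, in limma-voom and with the length and GC correction. Hspb8, which works with Bag3 in selective autophagy of damaged sarcomere proteins, was at 665, 651, 625 and 607 CPM in CD untreated, 594, 563, 628 and 663 in CD ertugliflozin, 646, 785, 675 and 678 in HFHS untreated, and 674, 616, 682 and 682 in HFHS ertugliflozin. Its groups overlapped with and without drug, and the averaged effect was 0.12 ± 0.04 (adjusted p = 0.084, edgeR).

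Bag3, itself an Hsp70 exchange factor, was at 342, 313, 343 and 305 CPM in CD untreated, 271, 302, 297 and 321 in CD ertugliflozin, 291, 396, 355 and 354 in HFHS untreated, and 341, 333, 315 and 349 in HFHS ertugliflozin. These groups overlapped, with an averaged effect of 0.13 ± 0.05 (adjusted p = 0.109, edgeR). Hspb7 was similar at 0.14 ± 0.05 (adjusted p = 0.104, edgeR). HFHS untreated replicate 1 was the lowest of its group in Hspb6, Hspb7, Hspb8 and Bag3. Without it, the averaged diet effects on Hspb6, Hspb8, Bag3 and Hspa4 passed, at 0.22, 0.14, 0.17 and 0.12. That of Hspb7 passed too, and 9 of the 32 genes were called, while the share called among all genes went from 11.6% to 15.8%.

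Hspb1, or Hsp25, a widely expressed member known to bind actin, went the other way from Hspb6. It was at 66.2, 71.1, 80.0 and 58.5 CPM in CD untreated, 55.4, 69.2, 60.6 and 58.3 in CD ertugliflozin, 56.7, 65.0, 64.6 and 60.6 in HFHS untreated, and 54.3, 57.7, 58.9 and 57.5 in HFHS ertugliflozin. The groups overlapped, and the averaged effect of -0.13 ± 0.06 did not pass (adjusted p = 0.167, edgeR). Hspb2 and Hspb3, which form a complex in muscle, had averaged diet effects of -0.04 and 0.03. Hspb2 shares 252 of its 834 exon bases with Cryab on the opposite strand, so reads there cannot be assigned with certainty.

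The inducible Hsp70 genes held the largest differences and the largest spread. Hspa1a was at 8.18, 6.54, 11.2 and 1.73 CPM in CD untreated, 1.10, 2.49, 1.66 and 4.15 in CD ertugliflozin, 2.77, 3.25, 1.40 and 2.06 in HFHS untreated, and 3.38, 2.47, 1.75 and 1.76 in HFHS ertugliflozin. Hspa1b was at 8.18, 5.13, 11.3 and 1.12 CPM in CD untreated, 0.939, 1.41, 1.18 and 3.74 in CD ertugliflozin, 2.51, 2.13, 1.26 and 1.63 in HFHS untreated, and 3.47, 0.956, 1.87 and 1.70 in HFHS ertugliflozin. For both genes 3 of the 4 CD untreated libraries were above all 12 others, and the fourth lay inside the range of the others. The diet effect without drug was -1.52 ± 0.50 for Hspa1a (adjusted p = 0.135, edgeR) and -1.76 ± 0.61 for Hspa1b (adjusted p = 0.159, edgeR) on the log2 scale. With drug it was 0.01 ± 0.53 and 0.15 ± 0.66. Without CD untreated replicate 4, the low library, both passed, at -1.84 (adjusted p = 0.0224, edgeR) and -2.11 (adjusted p = 0.0361, edgeR). Over the other single libraries left out, Hspa1a ranged from -1.73 to -1.18 (adjusted p of 0.136 to 0.282, edgeR) and Hspa1b from -1.91 to -1.33 (adjusted p of 0.148 to 0.333, edgeR), with the smallest effects without CD untreated replicate 3, the highest library. Without CD untreated replicates 2 and 3 they were -1.02 and -1.27 (adjusted p = 0.474 and 0.472, edgeR). The deposited regularized log2 values gave -0.44 and -0.45 in limma (adjusted p = 0.163 and 0.204).

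The 3 high libraries were those with the highest atrial and the highest valve marker levels given above, and 2 of them had the highest adipocyte marker levels. Of 6 adipocyte markers only 2, Plin1 and Cfd, passed the filter on low counts, while Adipoq, Lep, Retn and Ucp1 did not. The summed CPM of the 2 was 6.79, 7.36, 3.28 and 0.279 in CD untreated replicates 1 to 4 and 0 to 4.61 elsewhere. The summed CPM of 17 immediate early genes, known for fast and brief responses to stimuli, was 737, 617, 668 and 461 there and 407 to 667 elsewhere. With atrial and valve marker scores as covariates the diet effects without drug were -1.29 for Hspa1a and -1.77 for Hspa1b (adjusted p = 0.644 and 0.6, edgeR). That fit called 0 of all 15841 genes without drug, where the main fit called 2.06%. Its adjusted p therefore cannot set these 2 genes apart from others. The part of the adipocyte and immediate early genes in these levels was not tested. Hspa1a and Hspa1b agree at 98.1% of coding bases, and 58.8% of the 50-base windows of Hspa1a occur in Hspa1b, so their separate counts are uncertain. Hspa1a also overlaps Gm20481 on the opposite strand over 564 of 2967 exon bases.

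**Figure D3:**
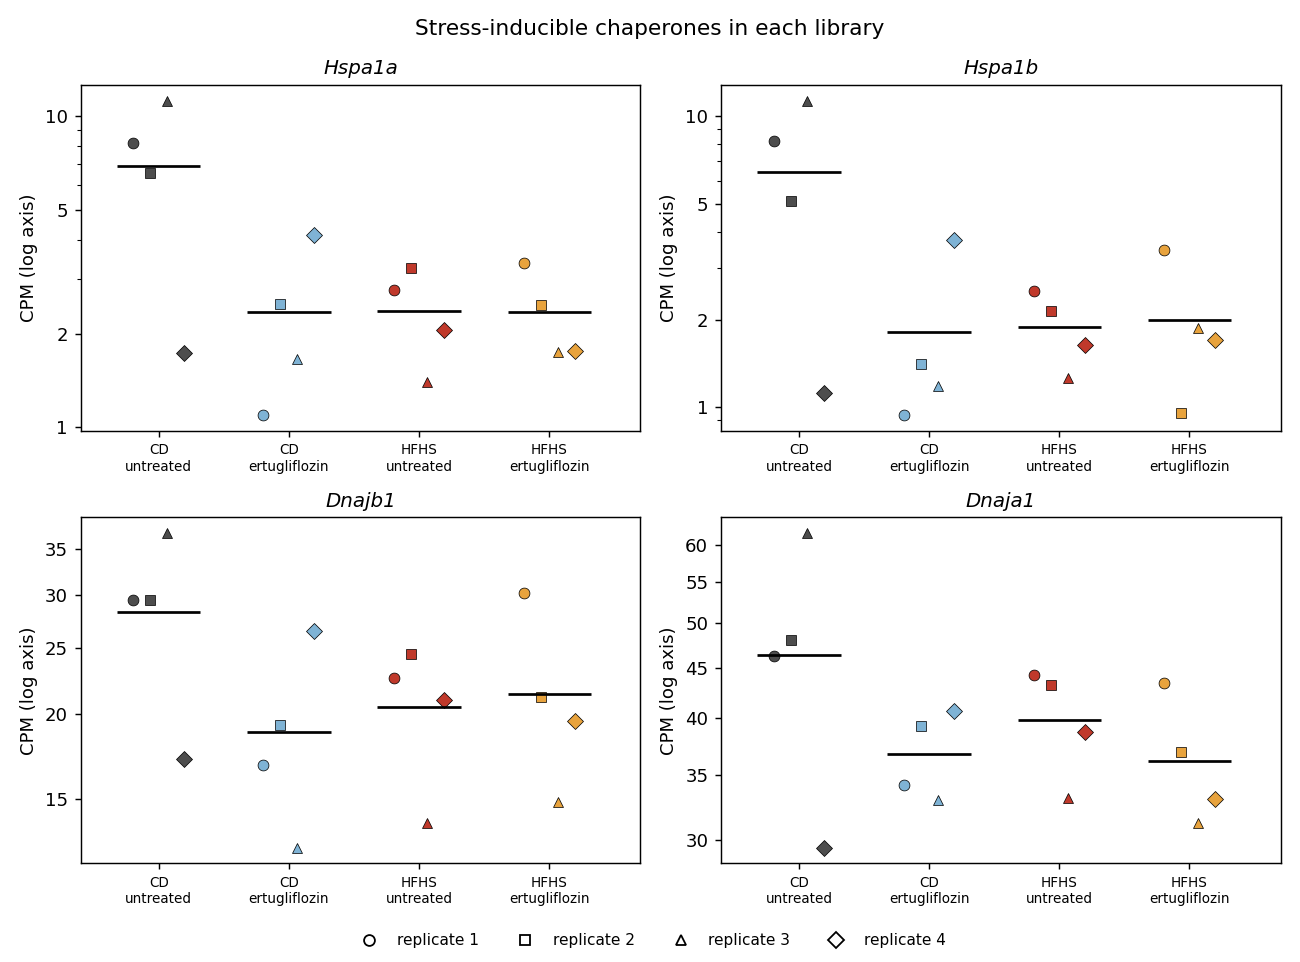
CPM on log axes of the stress-inducible genes Hspa1a, Hspa1b, Dnajb1 and Dnaja1 in each library by group, with the mean as a line and the replicate number as the symbol. CD untreated replicates 1 to 3 are above every other library for Hspa1a and Hspa1b, and replicate 4 of that group is the lowest of its group in all 4 panels.

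Hspa8, the constitutive Hsp70, was at 676, 756, 786 and 586 CPM in CD untreated, 633, 721, 629 and 591 in CD ertugliflozin, 594, 671, 672 and 619 in HFHS untreated, and 579, 593, 557 and 579.6 in HFHS ertugliflozin. The diet groups overlapped, and the averaged diet effect of -0.14 ± 0.05 did not pass (adjusted p = 0.094, edgeR). Hspa2, a member best known from spermatogenesis, ranged from 6.24 to 9.68 CPM over all libraries, with an averaged diet effect of 0.04 ± 0.09.

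Of the Hsp110 genes, Hsph1 is a classic target of Hsf1. It was at 93.7, 109, 127 and 74.5 CPM in CD untreated, 81.9, 87.0, 74.9 and 111 in CD ertugliflozin, 82.6, 95.1, 97.3 and 76.2 in HFHS untreated, and 75.3, 72.0, 80.2 and 79.3 in HFHS ertugliflozin. All groups overlapped, and the averaged diet effect was -0.21 ± 0.11 (adjusted p = 0.229, edgeR). Hspa4 was at 278, 289, 297 and 282 CPM in CD untreated, 291, 289, 282 and 284 in CD ertugliflozin, 274, 322, 333 and 303 in HFHS untreated, and 299, 306, 301 and 305 in HFHS ertugliflozin. The drug-treated groups of Hspa4 were apart by a narrow margin, and its averaged effect was 0.09 ± 0.04 (adjusted p = 0.104, edgeR). Hspa4l was at 111, 103, 119 and 101 CPM in CD untreated, 113, 111, 97.2 and 118 in CD ertugliflozin, 109, 113, 109.9 and 99.7 in HFHS untreated, and 96.1, 95.2, 109.6 and 101 in HFHS ertugliflozin. Its groups overlapped, with an averaged effect of -0.07 ± 0.05.

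Among the J-domain genes none passed. Dnajb1, the stress-inducible Hsp40, was at 29.4, 29.5, 37.0 and 17.2 CPM in CD untreated, 16.8, 19.2, 12.7 and 26.5 in CD ertugliflozin, 22.6, 24.5, 13.8 and 21.0 in HFHS untreated, and 30.1, 21.2, 14.8 and 19.5 in HFHS ertugliflozin. The groups overlapped, with CD untreated replicate 3 the highest of all libraries, and the diet effect was -0.46 ± 0.29 without drug and 0.19 ± 0.29 with drug. Dnajb4 was at 189.6, 206, 233 and 178 CPM in CD untreated, 146, 194, 171 and 176 in CD ertugliflozin, 167, 199, 170.1 and 169.9 in HFHS untreated, and 162, 192, 165 and 186 in HFHS ertugliflozin. These groups overlapped too, and the averaged effect was -0.08 ± 0.07. Dnaja2, a general partner of Hspa8, was at 347, 350.3, 348 and 367 CPM in CD untreated, 363, 366, 365 and 403 in CD ertugliflozin, 345, 354, 341 and 329 in HFHS untreated, and 354, 328, 349 and 358 in HFHS ertugliflozin. Only its drug-treated groups were apart, and the averaged effect of -0.08 ± 0.03 did not pass (adjusted p = 0.144, edgeR). Dnaja1 ranged from 29.5 to 61.7 CPM and Dnajb5 from 86.4 to 163 CPM, with averaged effects of -0.12 and -0.05. Dnaja1 shares 608 exon bases with Smu1 on the opposite strand.

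In the endoplasmic reticulum, the Hsp70 member Hspa5 (BiP) was at 830.5, 737, 818 and 740.2 CPM in CD untreated, 784, 834, 877 and 682 in CD ertugliflozin, 734, 694, 809 and 737 in HFHS untreated, and 664, 739, 680.1 and 719.5 in HFHS ertugliflozin. The groups overlapped in both drug arms, through replicate 4 of CD ertugliflozin in the treated arm. The diet effect with drug was -0.18 ± 0.07 (adjusted p = 0.166, edgeR), and it passed without that library, at -0.25. Hsp90b1, the Hsp90 of this compartment, was at 501, 479.6, 532 and 505 CPM in CD untreated, 496, 574, 582 and 413 in CD ertugliflozin, 541, 484, 549 and 503 in HFHS untreated, and 439.8, 488, 505 and 483 in HFHS ertugliflozin. It overlapped between all groups, with an averaged diet effect of -0.03 ± 0.06. Hsf1 was at 41.0, 39.0, 38.3 and 36.5 CPM in CD untreated, 39.6, 37.2, 37.0 and 39.6 in CD ertugliflozin, 32.8, 39.6, 40.7 and 40.7 in HFHS untreated, and 36.4, 37.6, 38.2 and 34.3 in HFHS ertugliflozin. Its groups overlapped, with an averaged diet effect of -0.04 ± 0.05, but the activity of Hsf1 is set mostly on the protein and is not read from its RNA.

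Because the untreated and treated arms are separate animals, their diet effects can be set side by side. They had the same sign in 23 of the 32 genes, 71.9%, beside 68.7% of all tested genes. Both were below 0 in 17 genes, 53.1%, beside 35.3% of all genes. Across the 32 genes, which are not independent of each other, Pearson's r between the effects was -0.13 and Spearman's rho 0.20, beside 0.33 and 0.42 across all genes. Hspa1a, Hspa1b and Dnajb1 lay far to the left without drug and at or above 0 with drug.

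**Figure D4:**
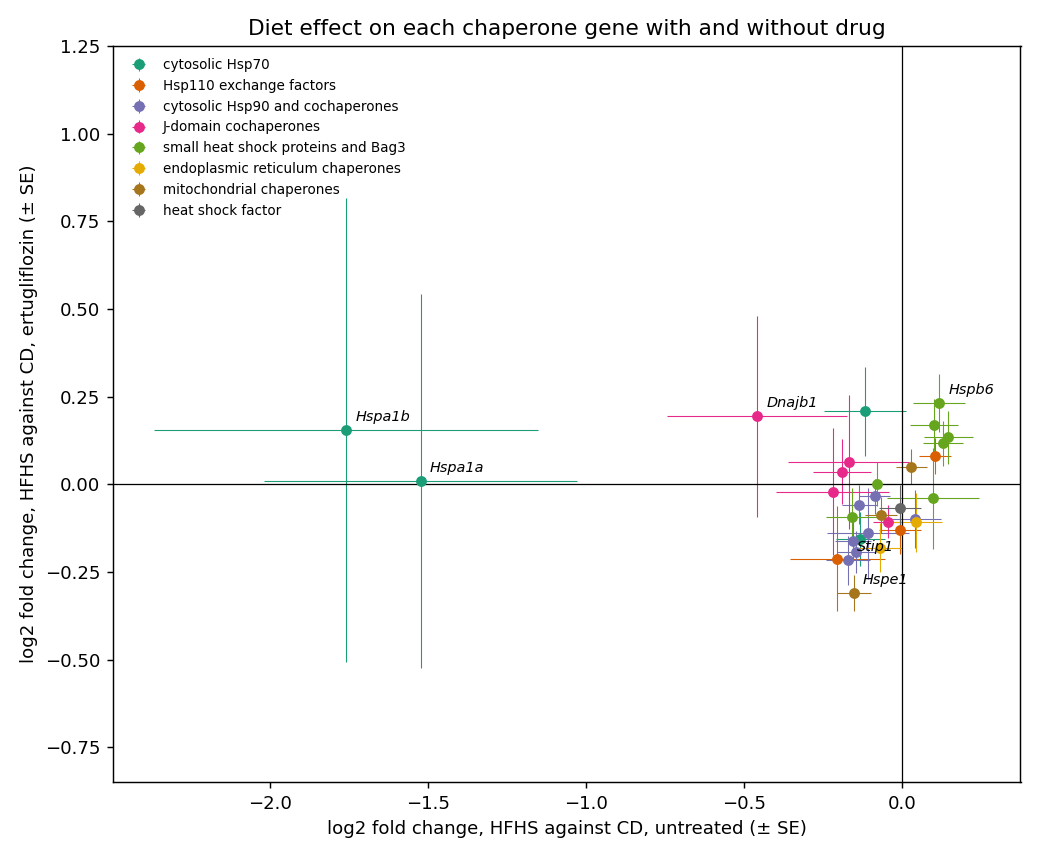
Diet effect (log2 fold change, HFHS against CD) on each of the 32 genes without drug (horizontal axis) and with drug (vertical axis), with bars of ± 1 SE and colours for roles. Hspe1 and Stip1 are below 0 on both axes, Hspb6 is above 0 on both, and Hspa1a and Hspa1b are at -1.52 and -1.76 on the horizontal axis but at 0.01 and 0.15 on the vertical axis.

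Ertugliflozin changed none of the 32 genes past the threshold on either diet or averaged over diets, in edgeR, DESeq2 or limma-voom. edgeR called 0.0189% of all genes on CD, 0 on HFHS and 0 in the average. At an unadjusted p under 0.05, 5 genes were lower and 0 higher on CD (3.14% of all genes lower), 1 was lower on HFHS (2.36%), and 5 were lower in the average (2.46%). The averaged drug effect was below 0 in 28 of 32 genes, beside 50.1% of all genes, with a median of -0.06. Since the genes are not independent of each other, these 28 are not separate pieces of evidence either. Hsp90ab1 had the smallest averaged p. It was at 1783, 1836, 1992 and 1675 CPM in CD untreated, 1618, 1661, 1612 and 1697 in CD ertugliflozin, 1723, 1754, 1704 and 1676 in HFHS untreated, and 1639, 1605, 1565 and 1622 in HFHS ertugliflozin. The drug groups were apart on HFHS and overlapped on CD, and the averaged drug effect was -0.12 ± 0.03 (unadjusted p = 0.00286, adjusted p = 0.863, edgeR). On HFHS 2 of the 32 genes were lower without overlap, Hspa8 and Hsp90ab1 (1.54% of all genes), and on CD 0 were (1.29%).

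On CD the drug effects on Hspa1a and Hspa1b were -1.55 ± 0.49 and -1.81 ± 0.60 (adjusted p = 0.73 and 0.743, edgeR). They rest on the same CD untreated libraries as the diet effects without drug, and so are not separate evidence. On HFHS they were -0.02 ± 0.55 and 0.10 ± 0.67. Hsp90aa1 had drug effects of -0.24 ± 0.13 on CD and -0.27 ± 0.13 on HFHS, and Hsph1 of -0.19 ± 0.15 and -0.20 ± 0.15. None of the 32 genes passed the test of the difference between the drug effects on the 2 diets (0.0189% of all genes did, edgeR; 1 of the 32, Hspe1, had an unadjusted p under 0.05, beside 4.27% of all genes).

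Variation between animals of one group was read against Hsph1. With each group's mean removed, log2 CPM of Hsph1 had a correlation above 0 with 29 of the other 31 genes over 16 libraries, beside 50.8% of all other tested genes. The strongest were Hsp90ab1 (r = 0.83, rho = 0.73, permutation adjusted p = 0.047 for r and 0.0984 for rho), Cacybp (r = 0.83, rho = 0.79, permutation adjusted p = 0.0601 and 0.0984) and Ahsa1 (r = 0.81, rho = 0.77, permutation adjusted p = 0.0329 and 0.0984). Of the 31 relations, 2 passed by r and 0 by rho. Without CD untreated replicates 3 and 4, whose deviations of Hsph1 lay farthest from their median, r was 0.65, 0.73 and 0.82. Without CD untreated replicate 3 and CD ertugliflozin replicate 4, whose log2 CPM of Hsph1 lay farthest from its median, r was 0.76, 0.70 and 0.69. Without the CD untreated group it was 0.63, 0.74 and 0.81. The endoplasmic reticulum genes Hspa5 and Hsp90b1 had r of -0.22 and -0.33, the only ones below 0. For Hspa1a, r was 0.93 with Dnaja1, 0.90 with its near copy Hspa1b, 0.87 with Dnajb1 and 0.82 with Hsp90ab1, values given as a description only.

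**Figure D5:**
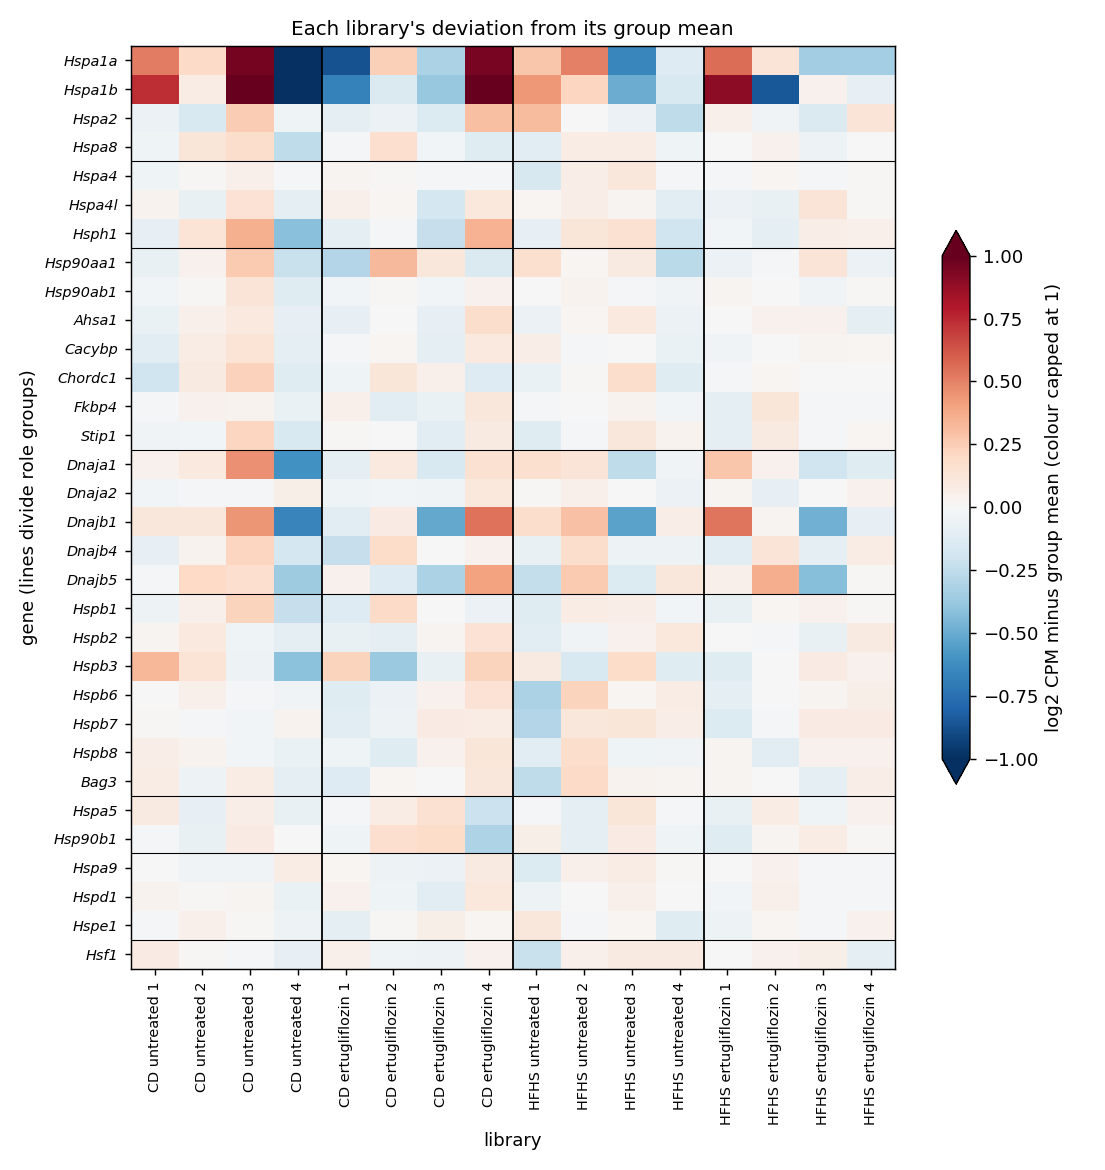
Deviation of each library's log2 CPM from its group mean (colour, capped at 1) for the 32 genes in role order, with the 16 libraries as columns. CD untreated replicate 3 and CD ertugliflozin replicate 4 are red, and CD untreated replicate 4 blue, for Hspa1a, Hspa1b, Hsph1 and Dnajb1. Deviations of Hspa9, Hspd1 and Hspe1 lie between -0.14 and 0.11.

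Other genes of protein folding were read from lists beside these. The counts below stand beside 5.01% of all genes called lower and 6.59% called higher in the averaged diet effect, and are descriptions of the lists. Averaged over drug arms, 6 of 14 genes of the cytosolic chaperonin CCT and its partner prefoldin fell and 0 rose, with a list median of -0.10 beside -0.01 over all tested genes. They were Tcp1, Cct4, Cct6a, Cct7, Cct8 and Vbp1, of which Cct4 fell the most, by 0.17 on the log2 scale. Of 13 further Hsp90 cochaperones and kin, 1 fell, Nudc (-0.19 ± 0.04, and -0.25 ± 0.06 with drug). Of 14 further Hsp70 relatives and exchange factors, Bag1 fell (-0.10) and Bag2 rose (0.20), and of 16 further J-domain genes, Dnajc7 fell (-0.10).

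Of 12 genes of mitochondrial proteostasis, 2 fell and 2 rose. Grpel1, the exchange factor of Hspa9, fell by 0.16 and Timm44, which anchors Hspa9 at the import channel, by 0.12, while the protease subunit Clpx rose by 0.15 and the stress factor Atf5 by 0.29. Grpel1 also fell with drug (-0.19 ± 0.05, adjusted p = 0.0331, edgeR), as Hspe1 did. In the unfolded protein response of the endoplasmic reticulum, 2 of 22 fell, the transcription factor Xbp1 (-0.21) and the BiP partner Sdf2l1 (-0.59), and Sel1l, of the degradation machinery, rose (0.14). Cryab, the major small heat shock protein of heart outside the 32, fell (-0.14 ± 0.04, adjusted p = 0.0251, edgeR), and Flnc, the filamin that Hspb7 binds, rose (0.34 ± 0.08, adjusted p = 0.0136, edgeR).

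Of 13 other heat shock factors and Hsf1-responsive genes, 0 passed in the average, with Gadd45g closest (0.37, adjusted p = 0.0639, edgeR) and the collagen chaperone Serpinh1 at 0.06. Of 17 immediate early genes, 15 clock genes and the cold-inducible Cirbp and Rbm3, 0 passed in the average. The smallest p among the immediate early genes was that of Egr2 for the averaged drug effect (-0.99 ± 0.28, adjusted p = 0.863, edgeR), and among the clock genes that of Cry2 (0.21 ± 0.13, adjusted p = 0.865, edgeR). In the diet effect averaged over drug arms, Rbm3 was at -0.14 ± 0.06 and Cirbp at -0.09 ± 0.10.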

How the data were processed

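The deposited table holds whole read counts per Ensembl gene, made by the authors with STAR 2.6.0c and featureCounts from Subread 1.6.2 on mm10, per the submitters' processing notes. Libraries were poly(A)-selected with a directional kit, per the labels' protocols. The annotation, the strand setting and the treatment of multi-mapping reads were not given in the sources used here. A deposited table of regularized log2 values, for which the submitters' processing notes name DESeq2 1.22.1, served only as an alternative.

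Symbols, exon lengths and overlaps come from GENCODE M21 (GRCm38), which named 53669 of 53764 IDs. The other 95 took 0.00852% to 0.0106% of counts. In R 4.3.3, edgeR 4.0.16 was fitted to all 16 libraries (filterByExpr, TMM, robust quasi-likelihood, 1 mean per group), with Benjamini-Hochberg adjustment over 15841 genes. SE values were derived from the fold change and the F statistic, as |log2 fold change| / sqrt(F). Log2 CPM used a prior count of 2. The script was tested on simulated data, where it missed the share of recovered changes first set as a mark and passed a lower mark set afterwards, with the fit unchanged. DESeq2 1.42.0, limma 3.58.1, other scalings, filters, single libraries left out and a replicate block were the alternatives. Counts of libraries in the same group differed beyond sampling noise (chi-square over degrees of freedom 3.23 to 16.3), and every library counted as 1 replicate.

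The members and lists were chosen with earlier results of these data known. Values in every library are given for genes called anywhere, for the 2 genes of smallest p in each role, and for Hspa1a, Hspa1b, Hsph1, Hspa8, Hsp90aa1, Hspa5, Hspd1, Hspb1, Bag3, Dnajb1 and Hsf1. Of the lists, up to 4 called genes are named, or else the one of smallest p, plus Cirbp, Rbm3, Cryab and Serpinh1. Hsp90ab1, 2 further CCT genes and the stretches of promoter shown were added after their values were seen.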

Additional observations from a re-analysis of the deposited data

Results flagged for a closer look

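In groups of 4 libraries, a library whose gap to its nearest neighbour took up more of the group's range than Dixon's 95% critical value was marked. Over 24 genes and 96 groups this marked 6, where chance alone marks about 1 in 20, or 4.8. Replicate 4 of CD ertugliflozin was marked high for Hspa1b at 3.74 CPM (the others at 0.939 to 1.41) and for Dnaja2 at 403 CPM (the others at 363 to 366). Dnaja2 was also high in CD untreated replicate 4, at 367 CPM beside 347 to 350.3. Hspb8 was low in HFHS ertugliflozin replicate 2, at 616 CPM beside 674 to 682. Dnajb4 was high in HFHS untreated replicate 2, at 199 CPM beside 167 to 170.1. Hsf1 was low in HFHS untreated replicate 1, at 32.8 CPM beside 39.6 to 40.7.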

How the results depend on the processing

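No value changed sign among the alternatives run for the 29 gene effects examined: of 694 recomputed values, 669 kept their side of the threshold, 20 newly passed and 5 no longer passed. Hspe1 was called in every alternative run with drug and averaged over drug arms. The length and GC correction took the Hspe1 effect from -0.31 to -0.23 with drug, and from -0.23 to -0.17 averaged over drug arms. limma-voom with sample weights called 2 of the 32 genes without drug (4.69% of all genes), 2 with drug (5.33%) and 10 averaged over drug arms (15.6%). A fit to only the groups compared called 3 with drug (4.68%). Of the alternatives added after seeing the data, marker scores as covariates called 2 with drug (3.23%) and 3 averaged over drug arms (4.87%). Without drug they called 0, beside 0 of all genes. The fit without both CD untreated replicates 2 and 3 called 1 averaged over drug arms (8.65%). Leaving out single libraries gave 0 to 3 called without drug (3 without HFHS untreated replicate 1, beside 5.28% of all genes, and 2 without CD untreated replicate 4, beside 1.73%), 1 to 2 with drug (2 without CD ertugliflozin replicate 4, beside 2.93%) and 4 to 9 averaged over drug arms (9 without HFHS untreated replicate 1, beside 15.8%, 7 without CD ertugliflozin replicate 4, beside 10.7%, and 6 without CD untreated replicate 4, beside 9.85%), while the drug effects and the interaction stayed at 0. The cause of these moves was not tested.

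The replicate number as a block gave 5 called in the averaged diet effect (11.3% of all genes), adding Hspb6 (adjusted p = 0.0397, edgeR). The labels tie no number to a shared litter or batch, and r of same-numbered deviations ranged from -0.24 to 0.31 (median 0.056, beside -0.023 for other pairs), so the samples were taken to share only a number. Of 16 libraries, 7 correlated best with a library of their own number. Some such matches arise by chance alone, and the count of 7 was not tested against that level. Low counts limit Hspa1a and Hspa1b, with mean counts of 62.9 and 54.6 per library.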
